A study of Mus musculus with 12 samples.

Results

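The primary cilium is a single, non-motile projection of the cell surface in which vertebrate hedgehog signaling takes place. In the absence of ligand, Ptch1 keeps Smoothened (Smo) out of the cilium, and some Gli proteins are cut into repressors. When ligand binds or Ptch1 is lost, Smo enters the cilium and full-length Gli activators reach the nucleus. Granule cell progenitors (GCPs) of the cerebellum carry such cilia and divide in response to Sonic hedgehog from Purkinje cells, and SHH subgroup medulloblastoma (MB) arises from them. The 10 genes described here, *Ift88*, *Ift172*, *Kif3a*, *Kif7*, *Arl13b*, *Tulp3*, *Evc*, *Evc2*, *Rpgrip1l* and *Inpp5e*, build the cilium or carry the signal inside it. They were chosen by name, with earlier results of these data known, and each was a single row among the 24091 genes of the expression table.

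Bulk RNA sequencing of 12 mouse samples gave 4 groups of 3. Tumors came from *Brca2Δex3-4; Trp53-/-* mice GB344, GB359 and GB370 at tumor or humane endpoint, and adjacent cerebellum came from the same 3 mice. The controls were cerebella of *Brca2Δex3-4; Trp53+/+* mice GB361, GB508 and GB512 and of *Brca2WT; Trp53-/-* mice GB517, GB519 and GB520, which the study describes as age-matched adults. *Brca2* exons 3 and 4 were removed by Cre under the human *GFAP* promoter in the developing central nervous system, whereas the *Trp53* knockout was global. No group was wild type at both genes, so each control carried 1 of the 2 lesions of the tumor mice. Values were in TPM, a transcript abundance that corrects for the length of each transcript and for library size, so levels can be compared between genes, and the read depth behind them is unknown. Whether cell numbers or RNA per cell lie behind a higher or lower value cannot be told apart in bulk tissue. No sample was of GCPs isolated from normal cerebellum.

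The deletions could not be checked in these values, because TPM were summed over all exons of a gene. *Trp53* was at 33.1 to 37.2 TPM in the *Brca2Δex3-4; Trp53+/+* cerebella and at 47.0 to 49.4 TPM in the *Brca2WT; Trp53-/-* cerebella, so it was not lower in the samples labelled as knockouts, and genotypes are given as labelled. The summed level of 5 GCP markers (*Atoh1*, *Barhl1*, *Mki67*, *Top2a*, *Ccnd2*) was 848 to 1763 TPM in tumors and 13.8 to 40.4 TPM in the 6 controls. In the adjacent cerebella it was 518, 399 and 53.6 TPM in mice GB344, GB359 and GB370, so 2 of the 3 libraries labelled adjacent cerebellum held GCP markers far above the controls. The sum in mouse GB370 was also above every control, and its *Atoh1* was at 5.0 TPM, beside at most 0.212 TPM in controls. The 5 mature granule neuron markers fell in tumors, to a sum of 95.0 to 352 TPM from 2165 to 2819 TPM in controls. *Ttr* and other choroid plexus markers were raised in 4 control libraries (mice GB361, GB517, GB519 and GB520), and results were also computed without these.

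A gene passed the test of a comparison at an adjusted p under 0.01 (limma, Benjamini-Hochberg over all tested genes) with a log2 fold change of 1 or more in size, and "rose" and "fell" are used for such genes. In tumors against the 6 control cerebella, *Evc*, *Evc2* and *Kif7* rose and *Inpp5e* fell. These were 3 of 10 genes higher, where 14.4% of the 16241 tested genes were higher, and 1 of 10 lower, where 21.5% were lower. At the same adjusted p with no minimum fold change, 5 of the 10 were higher and 3 lower, beside 26.9% and 34.2% of all tested genes. The 10 genes thus moved both ways, and 2 of them, *Ift88* and *Rpgrip1l*, did not pass at either threshold. Their median log2 fold change was 0.29, beside -0.11 over all tested genes. Relative to that all-gene median, *Evc* was 2.42 higher, *Evc2* 2.31 higher, *Kif7* 1.43 higher and *Inpp5e* -1.36 on the log2 scale. Under median-of-ratios scaling the all-gene median was -0.01 and under quantile normalization it was 0.06, and these 4 genes passed in the same direction under both.

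**Figure D1:**
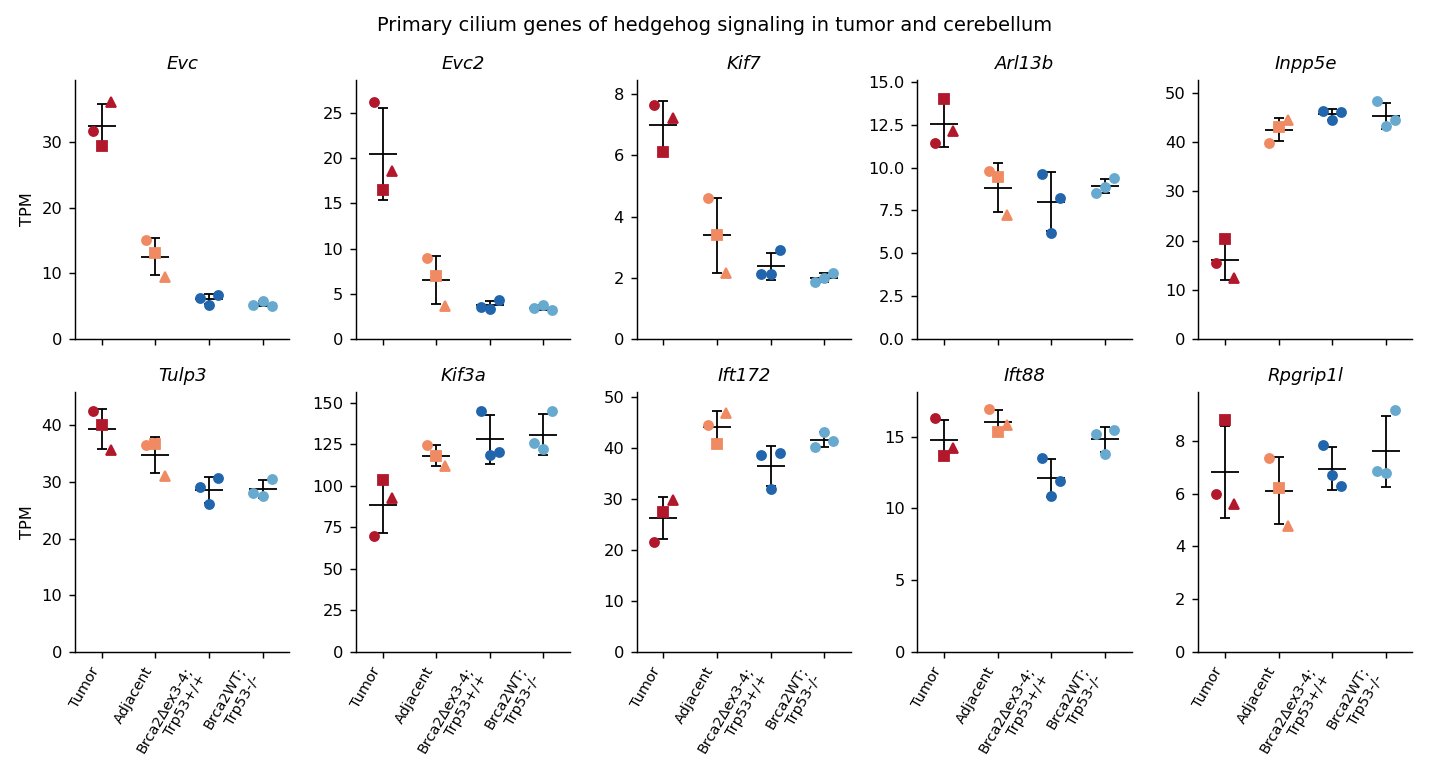
TPM of each of the 10 genes (vertical axes, from 0) in the 4 groups. Points are samples, with the circle, square and triangle of tumor and adjacent cerebellum marking mice GB344, GB359 and GB370, and black bars are the mean ± SD of 3 samples. *Evc* lay at 29.3 to 36.0 TPM in tumors, above all other samples, and *Inpp5e* at 12.4 to 20.4 TPM, below all other samples.

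*Evc* and *Evc2* encode the single-pass membrane proteins that form a complex at the base of the cilium (the EvC zone), where it binds Smo and passes the signal on to the Gli proteins. Loss of either causes Ellis-van Creveld syndrome in humans. *Evc* was at 31.6, 29.3 and 36.0 TPM in the tumors of mice GB344, GB359 and GB370, and at 15.1, 13.1 and 9.45 TPM in their adjacent cerebella. It was at 6.29, 5.17 and 6.67 TPM in the *Brca2Δex3-4; Trp53+/+* cerebella and at 5.24, 5.86 and 5.09 TPM in the *Brca2WT; Trp53-/-* cerebella. Every tumor was above every adjacent cerebellum, and every adjacent cerebellum was above every control, while the 2 control genotypes overlapped. The tumor mean of 32.3 ± 3.38 TPM (SD, n = 3) was 5.65 times the control mean of 5.72 ± 0.657 TPM (n = 6), a log2 fold change of 2.31 ± 0.12 (SE, limma adjusted p = 6.29e-08).

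*Evc2* was at 26.1, 16.5 and 18.6 TPM in tumors and at 8.92, 6.97 and 3.67 TPM in adjacent cerebella. It was at 3.5, 3.33 and 4.33 TPM in the *Brca2Δex3-4; Trp53+/+* cerebella and at 3.43, 3.75 and 3.18 TPM in the *Brca2WT; Trp53-/-* cerebella. The tumors stood above all other samples, and the adjacent cerebellum of mouse GB370 lay within the range of the controls. The log2 fold change from controls to tumors was 2.20 ± 0.15 (limma adjusted p = 4.26e-07), and the ratio of mean TPM was 5.69. Within a sample, *Evc2* was below *Evc* throughout, at 0.516 to 0.825 times its TPM in tumors, 0.389 to 0.590 times in adjacent cerebella and 0.558 to 0.655 times in controls.

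The 2 genes lie head to head on mouse chromosome 5 (GRCm38.p6), *Evc* at chr5:37288970-37336947 on the minus strand and *Evc2* at chr5:37338478-37425055 on the plus strand. The start sites of their RefSeq promoter windows, 37336881 for *Evc* and 37338478 for *Evc2*, have 1596 bases between them, and the genes are transcribed away from this stretch. The *Evc* start used there lies inside the gene span, which reaches further upstream. The 250 bases before each start are shown because these neighbours moved together. Capitals mark GGCAAC, the reverse complement of GTTGCC, the core of the X-box that RFX factors of ciliary genes bind. The *Evc* stretch is chr5:37336882-37337131 (minus strand) and the *Evc2* stretch chr5:37338228-37338477 (plus strand), both read 5′ to 3′ in the direction of the gene.
Evc: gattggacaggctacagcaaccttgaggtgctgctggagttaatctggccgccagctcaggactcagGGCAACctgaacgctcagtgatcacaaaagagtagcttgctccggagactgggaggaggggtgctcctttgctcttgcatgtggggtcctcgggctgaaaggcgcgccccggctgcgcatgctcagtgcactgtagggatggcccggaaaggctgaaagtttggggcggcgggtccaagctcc
Evc2: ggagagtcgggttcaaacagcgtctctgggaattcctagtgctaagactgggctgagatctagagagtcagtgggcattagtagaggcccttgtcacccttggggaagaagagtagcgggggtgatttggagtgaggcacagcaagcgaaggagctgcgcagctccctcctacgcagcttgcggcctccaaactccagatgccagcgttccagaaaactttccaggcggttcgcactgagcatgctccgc

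All 10 genes had a RefSeq promoter window of 300 bases, from 250 before to 50 after the start. GTTGCC stood on either strand in the windows of 5 of them (*Evc*, *Kif3a*, *Arl13b*, *Ift88* and *Ift172*), beside 12.5% of all 32851 windows in the table. A pair of inverted copies (GTNNCC and GGNNAC joined by 0 to 3 bases) stood in no window of the 10 genes and in 3.86% of all windows. GACCACCCA, the core bound by Gli proteins, also stood in no window of the 10 genes, and in 0.253% of all windows. Both were rare in all windows, so their absence here does not tell whether RFX factors or Gli proteins bind these genes. In *Ift88* and *Ift172* the GTTGCC match lay at or after the start site, and in *Kif3a* and *Arl13b* upstream of it. These upstream matches are shown with their flanks, in capitals, because *Kif3a* and *Arl13b* held the same letters and had fold changes of opposite sign. *Kif3a* is read from chr11:53567251-53567296 (plus strand) and *Arl13b* from chr16:62847196-62847241 (minus strand).
Kif3a: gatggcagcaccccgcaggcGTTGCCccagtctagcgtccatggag
Arl13b: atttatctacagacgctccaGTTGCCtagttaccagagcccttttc

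The other EvC zone genes, *Efcab7* and *Iqce*, encode the proteins that tether the complex at the ciliary base. *Efcab7* also rose, to 8.97, 6.08 and 10.8 TPM in tumors from 1.87 to 3.98 TPM in controls, a log2 fold change of 1.38 ± 0.21 (limma adjusted p = 1.62e-04). *Iqce* was 0.35 higher on the log2 scale (limma adjusted p = 0.00463), under the fold change minimum. Of the 4 genes of this zone, 3 therefore rose and none fell. Without *Evc* and *Evc2* themselves, 1 of 2 rose, beside 14.4% of all tested genes.

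*Kif7* encodes the kinesin that sits at the ciliary tip and holds Gli proteins there, acting both against and for the pathway. It was the lowest of the 10 genes in the controls. *Kif7* was at 7.63, 6.11 and 7.22 TPM in tumors and at 4.60, 3.4 and 2.16 TPM in adjacent cerebella. The *Brca2Δex3-4; Trp53+/+* cerebella had 2.11, 2.12 and 2.90 TPM and the *Brca2WT; Trp53-/-* cerebella 1.86, 2.0 and 2.15 TPM. Tumors were above all other samples, while the adjacent cerebellum of mouse GB370 lay among the controls. The log2 fold change from controls to tumors was 1.32 ± 0.13 (limma adjusted p = 7.43e-06), on a scale that understates changes of low TPM, and the ratio of mean TPM was 3.19. *Kif7* shares 51 of its 4581 exon bases with *Ticrr*, a DNA replication gene on the opposite strand, which was at 11.1 to 14.2 TPM in tumors and at most 0.996 TPM in controls. It also shares 877 with the antisense RNA *9330171B17Rik*. Whether reads were assigned by strand is not given in the sources used here, so the part of either gene in the *Kif7* values was not tested.

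*Inpp5e* encodes the lipid phosphatase that keeps phosphatidylinositol 4-phosphate high in the ciliary membrane, and *Arl13b* the small GTPase that brings it there. *Tulp3* reads the phosphoinositide at the ciliary base and carries receptors into the cilium, among them Gpr161, which restrains the pathway. *Inpp5e* was at 15.5, 20.4 and 12.4 TPM in tumors and at 39.9, 43.1 and 44.4 TPM in the adjacent cerebella of the same mice. It was at 46.4, 44.4 and 46.0 TPM in the *Brca2Δex3-4; Trp53+/+* cerebella and at 48.3, 43.3 and 44.4 TPM in the *Brca2WT; Trp53-/-* cerebella. The 9 non-tumor samples lay close together and the tumors lay well below them. The log2 fold change was -1.47 ± 0.13 against controls (limma adjusted p = 2.55e-06), a ratio of mean TPM of 0.354. Mature granule neuron markers fell in the same tumors, and the part of neuron content in the *Inpp5e* values was not tested. *Inpp5e* stood at 6.91 to 9.22 times the TPM of *Evc* in controls and at 0.343 to 0.695 times in tumors, so the order of these genes turned. *Inpp5e* shares 874 of its 4301 exon bases with *Pmpca* on the opposite strand, which was at 55.4 to 81.8 TPM in tumors and at 72.8 to 88.8 TPM in controls.

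*Arl13b* was at 11.5, 14.0 and 12.1 TPM in tumors, 9.83, 9.44 and 7.21 TPM in adjacent cerebella and 6.18 to 9.62 TPM in controls. The tumors were above all other samples, by less than the fold change minimum. The log2 fold change against controls was 0.52 ± 0.14 (limma adjusted p = 0.00675), and it kept an adjusted p under 0.01 in 4 of 9 fits that each left out 1 sample. *Tulp3* was at 42.5, 40.1 and 35.6 TPM in tumors, 36.4, 36.7 and 31.1 TPM in adjacent cerebella and 26.1 to 30.6 TPM in controls. Tumor and adjacent samples overlapped, and both lay above the controls. Its log2 fold change between tumors and controls was 0.44 ± 0.09 (limma adjusted p = 9.89e-04), under the fold change minimum.

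In the wider list of 9 genes for ciliary lipids, GTPases and receptor traffic, 1 rose and 2 fell in tumors against controls. The shares of all tested genes were 14.4% and 21.5%. *Gpr161* rose to 9.21, 11.1 and 10.6 TPM from 3.32 to 4.45 TPM in controls. *Arl3*, the GTPase that releases lipidated cargo in the cilium, fell by 1.29 on the log2 scale (limma adjusted p = 8.15e-05), as *Inpp5e* did. The median of the list was -0.22, beside -0.11 over all genes.

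The intraflagellar transport (IFT) genes and their motor had smaller differences. *Ift172* and *Ift88* encode subunits of the IFT-B complex, which carries cargo to the ciliary tip, and *Kif3a* a motor subunit of kinesin-II, which pulls it. *Ift172* was at 21.6, 27.5 and 29.8 TPM in tumors, 44.7, 40.8 and 47.0 TPM in adjacent cerebella and 32.1 to 43.3 TPM in controls. *Kif3a*, the highest of the 10 genes in each sample, was at 69.7, 104 and 92.3 TPM in tumors, 124, 118 and 112 TPM in adjacent cerebella and 118 to 145 TPM in controls. For both genes the tumors were below all other samples. The log2 fold changes against controls were -0.56 ± 0.12 for *Ift172* (limma adjusted p = 0.0018) and -0.55 ± 0.13 for *Kif3a* (limma adjusted p = 0.00252), both under the fold change minimum.

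*Ift88* was at 16.4, 13.7 and 14.2 TPM in tumors, 16.9, 15.3 and 15.8 TPM in adjacent cerebella and 10.9 to 15.5 TPM in controls, and the tumors overlapped the adjacent cerebella and the *Brca2WT; Trp53-/-* controls. Its log2 fold change between tumors and controls was 0.13 ± 0.13 (limma adjusted p = 0.39). *Rpgrip1l*, a scaffold of the transition zone that gates the cilium at its base, was at 6.0, 8.80 and 5.61 TPM in tumors, 7.35, 6.21 and 4.78 TPM in adjacent cerebella and 6.29 to 9.16 TPM in controls. All groups overlapped, and the log2 fold change between tumors and controls was -0.10 ± 0.16 (limma adjusted p = 0.596), with a sign that turned under another scaling. A difference in these 2 genes was not detectable with 3 tumors.

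**Figure D2:**
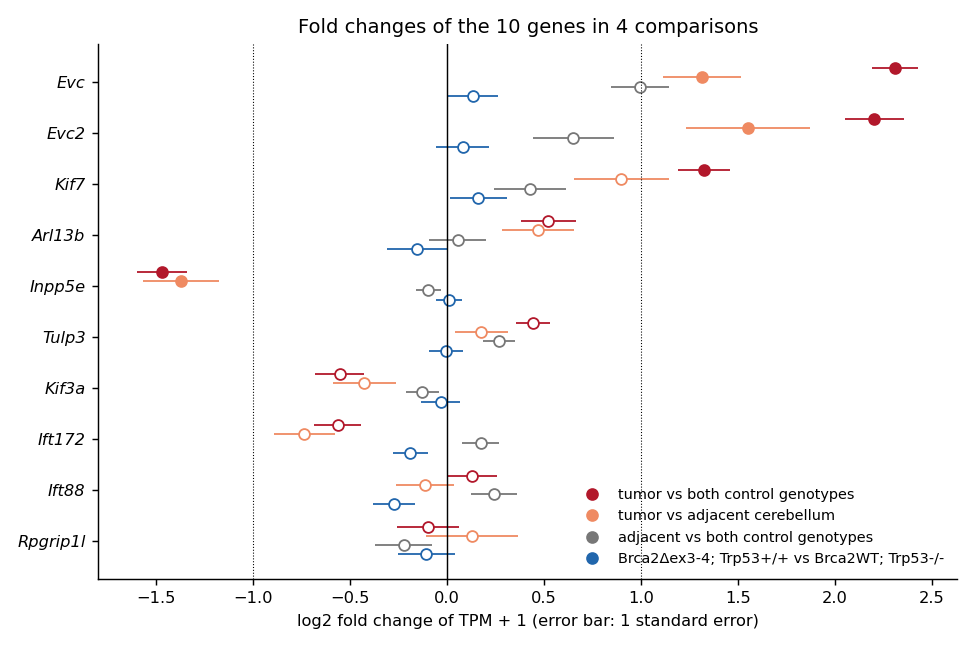
Log2 fold change of TPM + 1 (horizontal axis, with 1 standard error) of the 10 genes in the 4 comparisons, filled where the test was passed. The filled points are *Evc*, *Evc2*, *Kif7* and *Inpp5e* in tumors against controls, and *Evc*, *Evc2* and *Inpp5e* in tumors against adjacent cerebellum. Dotted lines mark a log2 fold change of 1 in either direction.

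Of 84 further cilium genes in 8 lists, 83 were tested in tumors against controls. Of these 9 rose, beside 14.4% of all tested genes, and 5 fell, beside 21.5%, so both counts were below the background. Their median log2 fold change was 0.20. The counts and medians of single lists that follow include any of the 10 genes that belong to them. Among 17 tested IFT-B genes, *Ift74* (1.08) and *Ttc26* (1.04) rose and none fell, and the median was -0.01. None of 6 IFT-A genes, which carry membrane proteins into the cilium and back from its tip, passed the fold change minimum. With no minimum, 3 of the 6 were higher at an adjusted p under 0.01 (limma), beside 26.9% of all tested genes. The median of the 6 was 0.53. Of 10 motor genes, *Kif3c* (-1.46), *Kifap3* (-1.40) and *Kif17* (-1.27) fell and none rose. The median was -0.18, or 0.05 for the 9 without *Kif3a*. *Kifap3* encodes the non-motor subunit that binds Kif3a, and these kinesins also serve axons and dendrites of neurons. In the same libraries the 5 mature granule neuron markers and the 4 Purkinje cell markers all fell, with medians of -4.49 and -5.34. The part of neuron content in the motor values, and in those of *Inpp5e* and *Arl3*, was not tested.

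Among 21 transition zone genes, 3 rose, beside 14.4% of all tested genes, and none fell, beside 21.5%. The largest rises were in *Tmem107* (1.67) and *Mks1* (1.36), and the median was 0.15, or 0.20 without *Rpgrip1l*. Of 15 genes of the basal body and ciliogenesis, *Wdpcp* (2.40), a planar polarity effector needed for cilium formation, and *Cep89* (1.23) rose, while *Ttbk2* (-1.41), the kinase that starts ciliogenesis, fell. The median of that list was 0.56. None of the 10 genes of the BBSome, a coat that moves membrane proteins out of the cilium, passed, and their median was -0.46. With no minimum fold change, 5 of them were lower at an adjusted p under 0.01 (limma), beside 34.2% of all tested genes. Genes of multiciliated ependymal cells bear on the same structures, since motile cilia share most of these parts. Of 11 tested ependymal markers, 6 fell and 1 (*Ccdc40*) rose, and the sum of 12 was 19.8 to 22.4 TPM in tumors, 41.5 to 58.6 TPM in adjacent cerebella and 53.4 to 70.0 TPM in controls. The part of ependymal cells in the cilium values was not tested.

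**Figure D3:**
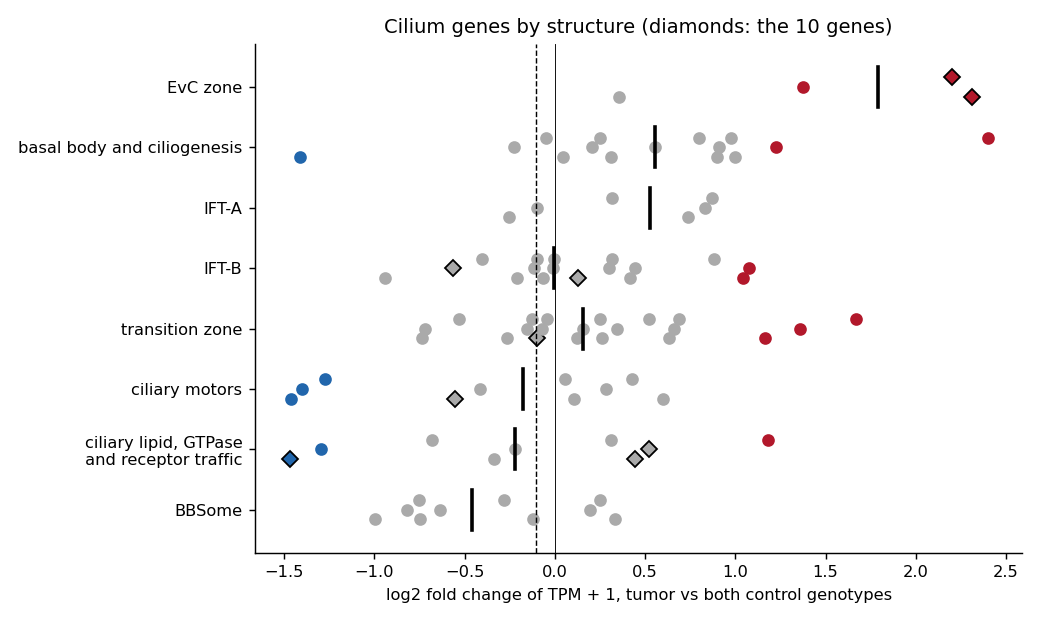
Log2 fold change of TPM + 1 in tumors against both control genotypes (horizontal axis) for the tested genes of 8 cilium lists. Red points rose, blue points fell, grey points did not pass, diamonds are the 10 genes, vertical bars are list medians and the dashed line is the median of all tested genes (-0.11). The median was 1.79 for the 4 EvC zone genes (0.87 without *Evc* and *Evc2*) and -0.46 for the BBSome.

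Other genes of the hedgehog pathway changed in the same tumors, and of 12 core genes, 7 rose and 2 fell against controls. Over all tested genes, 14.4% rose and 21.5% fell. *Gli1*, a transcriptional target of the pathway, was at 142, 193 and 252 TPM in tumors, 67.2, 61.0 and 24.2 TPM in adjacent cerebella and 15.2 to 21.4 TPM in controls. *Smo*, which the EvC complex binds, rose by 2.32 on the log2 scale (limma adjusted p = 1.27e-07). *Cdon*, a co-receptor for the ligand, and *Shh*, the ligand itself, fell by 2.28 and 2.34. The summed Purkinje cell markers were at 47.8 to 251 TPM in tumors and at 4023 to 6816 TPM in controls. The part of Purkinje cell content in the *Shh* values was not tested. *Evc*, *Evc2* and *Kif7* had the same order of groups as *Gli1*, with tumor above adjacent cerebellum and controls. Within the tumors the order differed, since mouse GB344 had the lowest *Gli1* and the highest *Evc2* and *Kif7*. Of 9 genes that act when the cilium is dismantled before division, 4 rose in tumors, among them *Aurka* (4.25) and *Plk1* (3.92), and *Nedd9* fell (-1.14). RNA levels do not tell how many cells carried a cilium.

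**Figure D4:**
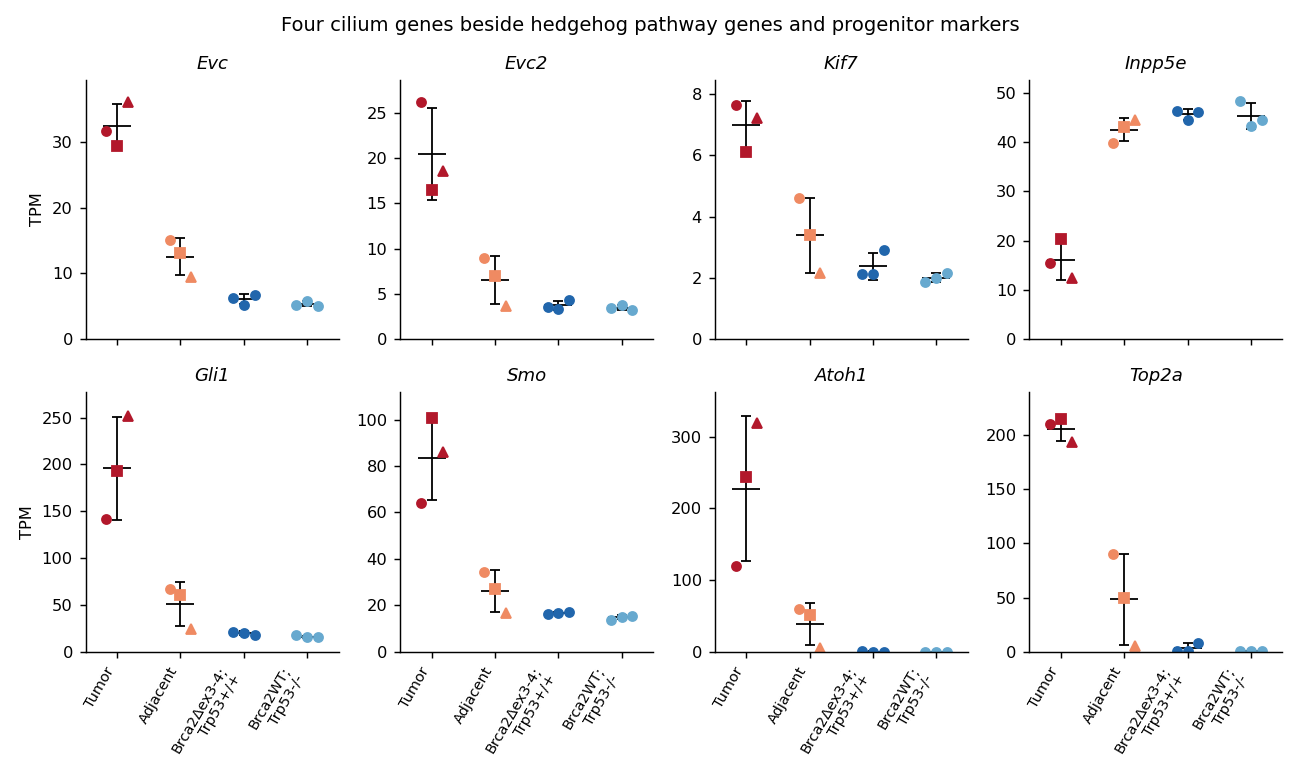
TPM (vertical axes, from 0) of *Evc*, *Evc2*, *Kif7* and *Inpp5e* above the hedgehog pathway genes *Gli1* and *Smo* and the progenitor and proliferation markers *Atoh1* and *Top2a*, by group, with points, marks and bars as in the plot of the 10 genes. Adjacent cerebella of mice GB344 and GB359 (circle, square) have 59.4 and 50.5 TPM of *Atoh1*, and that of mouse GB370 (triangle) 5.0 TPM.

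Tumor and adjacent cerebellum of the same mouse have the same germline genotype. The values below come from a fit without a mouse term, and a fit with the mouse as a block also passed the 3 genes named next. *Evc* and *Evc2* rose and *Inpp5e* fell in tumors, which made 2 of 10 genes higher, beside 4.76% of 15845 tested genes, and 1 lower, beside 18% of them. With no minimum fold change, the counts were 2 higher and 2 lower, beside 7.12% and 22.4%. Of all genes that passed, 20.9% were higher here, but 34.4% under median-of-ratios scaling and 43.6% under quantile normalization, while *Evc*, *Evc2* and *Inpp5e* passed in the same direction under both. *Evc* was 2.09, 2.24 and 3.81 times as high in the tumor as in the adjacent cerebellum of mice GB344, GB359 and GB370. *Evc2* was 2.93, 2.37 and 5.06 times as high. *Inpp5e* was at 0.389, 0.474 and 0.278 times its adjacent level. All 3 mice had the same direction for each of these genes, as they did for every other gene of the 10 except *Rpgrip1l*.

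The log2 fold changes were 1.32 ± 0.20 for *Evc* (limma adjusted p = 0.00224), 1.55 ± 0.32 for *Evc2* (limma adjusted p = 0.00744) and -1.37 ± 0.19 for *Inpp5e* (limma adjusted p = 0.00169). *Inpp5e* passed in each of the 6 fits that left out 1 sample. *Evc* did not pass without the tumor of mouse GB370 (limma adjusted p = 0.0111) or the adjacent cerebellum of mouse GB359 (limma adjusted p = 0.0102). *Evc2* passed only when the adjacent cerebellum of mouse GB344 was left out, with adjusted p of 0.0123 to 0.0226 in the other 5 fits of limma. With the adjacent cerebella of mice GB344 and GB359 both left out, a choice made after seeing the data, the lone adjacent sample was assumed to vary like the tumors and none of the 3 passed. *Evc2* was then 2.17 higher, *Evc* 1.67 higher and *Inpp5e* -1.44 on the log2 scale, with limma adjusted p of 0.0158, 0.0126 and 0.0385. These differences were as large as with all samples.

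*Kif7* was 0.90 ± 0.25 higher in tumors than in adjacent cerebella (limma adjusted p = 0.0216) and did not pass, but it passed under quantile normalization, at 1.29 (limma adjusted p = 0.00408). *Ift172* was at 0.484, 0.673 and 0.633 times its adjacent level, a log2 fold change of -0.74 with an adjusted p of 0.00853 (limma), but of 0.0124 to 0.0309 when any 1 sample was left out and 0.0147 with the mouse as a block. *Arl13b* (0.47), *Kif3a* (-0.43), *Tulp3* (0.18), *Rpgrip1l* (0.13) and *Ift88* (-0.11) had adjusted p above 0.06, and the sign of *Ift88* turned under both other scalings.

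In adjacent against control cerebella, 4 of the 10 genes had an unadjusted p under 0.05 (limma), beside 5551 of 16091 tested genes. None of the 10 passed, beside 0.236% of the tested genes in either direction. *Evc* came closest, at 12.6 ± 2.88 TPM (n = 3) against 5.72 ± 0.657 TPM (n = 6) and a log2 fold change of 0.996 ± 0.15 (limma adjusted p = 0.00978), just under the fold change minimum. With no such minimum it was the single gene of the 10 to be higher, beside 0.392% of tested genes. *Evc* in adjacent cerebellum was highest in mice GB344 and GB359, which also had most *Atoh1*, *Top2a* and *Gli1*. Without these libraries its log2 fold change was 0.64 (limma adjusted p = 0.124), and without that of mouse GB370 it passed, at 1.17 (limma adjusted p = 4.91e-04). Each of the other 8 fits that left out 1 sample gave an adjusted p above 0.01. *Kif7* and *Evc2* were 0.43 and 0.65 higher with all 3 adjacent cerebella, and -0.01 and 0.03 with mouse GB370 alone. The part of GCP content in the adjacent values was not tested further. *Inpp5e* was 42.5 ± 2.32 TPM in adjacent cerebella and 45.5 ± 1.80 TPM in controls (limma adjusted p = 0.302). The 2 tumor comparisons share the tumors, and 2 share the controls, so they are not independent of each other.

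Between the control genotypes, *Brca2Δex3-4; Trp53+/+* and *Brca2WT; Trp53-/-*, 1 of the 10 genes had an unadjusted p under 0.05 (limma), beside 3123 of 15575 tested genes. None of the 10 passed, beside 0.0578% of the tested genes. Log2 fold changes ran from -0.28 (*Ift88*) to 0.16 (*Kif7*), with adjusted p of 0.221 or more. *Ift88* was at 13.6, 10.9 and 11.9 TPM against 15.2, 13.8 and 15.5 TPM. *Ift172* was at 32.1 to 39.0 against 40.3 to 43.3 TPM, and neither passed. Against either control genotype alone, *Evc*, *Evc2* and *Kif7* rose and *Inpp5e* fell in tumors, with log2 fold changes of 2.24 and 2.38 for *Evc* and -1.47 and -1.46 for *Inpp5e*. Without the 4 controls with raised choroid plexus markers, *Evc* rose by 2.27, *Evc2* by 2.13 and *Kif7* by 1.19, and *Inpp5e* was at -1.46, all still passing.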

How the data were processed

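RNA was sequenced from 12 flash-frozen mouse samples by poly(A) selection (NEB Ultra II). The authors quantified transcripts with Salmon 0.8.1 on mm10 known genes, summed them to genes, and deposited TPM for 24091 genes, with 2603 at 0 in all samples. Depth and strand settings are not given in the sources used here, so precision rests on the spread between mice. Each sample had 15088 to 15803 genes of at least 1 TPM.

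For each comparison, log2(TPM + 1) was fitted by limma 3.58.1 in R 4.3.3 (lmFit, then eBayes with a trend) on the samples of that comparison alone, keeping genes that reached 1 TPM in 3 of them or more. P-values were adjusted by Benjamini-Hochberg across every gene kept. The thresholds were those of the study, 0.01 for the adjusted p and 1 for the size of the log2 fold change. The model was tested on simulated data. Tumor and adjacent cerebellum came from the same mice. The main fit had no mouse term, and a fit with the mouse as a block was an alternative, since deviations from group means correlated at 0.249, 0.176 and 0.152 across genes within mice GB344, GB359 and GB370. Member genes and lists were chosen with earlier results of these data known. Named genes were the 10 genes, the 2 largest rises and falls of each list, and context genes of the marker, hedgehog and disassembly lists. *Kif17*, *Efcab7*, *Iqce*, *Ticrr*, *9330171B17Rik* and *Pmpca* were named after their values were seen. Single values of some listed genes are not reported here. Positions and promoters are RefSeq's (GRCm38.p6, matched by gene identifier), exon overlaps GENCODE vM21. Alternatives changed 1 choice at a time: pseudocount, filter, scaling, trend, threshold, control group, all 4 groups in a fit, mouse block and each sample left out. Figures used Python 3.11.15 and matplotlib 3.10.9.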

Additional observations from a re-analysis of the deposited data

Results flagged for a closer look

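*Kif7* in the *Brca2Δex3-4; Trp53+/+* cerebellum of mouse GB512, at 2.90 TPM, stood apart from the other 5 control cerebella. Its gap to the next sample was 0.717 of the whole range of the 6 controls, above Dixon's critical value of 0.625. Chance flags about 1 in 20 groups, and 10 genes were examined. The same library had the highest *Top2a* of the controls, at 8.42 TPM.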

How the results depend on the processing

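In tumors against controls, 3 genes were higher and 1 lower under every alternative with a fold change minimum, and 5 and 3 with no minimum at an adjusted p under 0.01 or 0.05. In tumors against adjacent cerebellum, 2 were higher and 1 lower, and the replicate block, which pairs samples by mouse, gave the same 2 and 1. The higher count was 3 under quantile normalization, which added *Kif7*, 3 when any fold change counted at an adjusted p of 0.05, 1 with no filter, 0 to 2 when 1 sample was left out, and 0 without the adjacent cerebella of mice GB344 and GB359. The lower count was 0 without those adjacent cerebella, 2 with no fold change minimum, and 1 whenever 1 sample was left out. In adjacent against control cerebella the higher count was 1 with a pseudocount of 0.1 or 0.01 or no fold change minimum, and 0 to 1 when 1 sample was left out. The cause was not tested. Over all genes, 755 were higher in tumors than in adjacent cerebellum and 2852 lower, with 189 to 1648 and 598 to 3111 under the alternatives. Adjacent against control cerebella had 36 higher and 2 lower genes, with 0 to 564 and 0 to 29, and the control genotypes 2 and 7, with 2 to 5 and 0 to 27. *Ift88* turned sign in tumors against *Brca2WT; Trp53-/-* controls alone (-0.0101), and against adjacent cerebellum under median-of-ratios scaling (0.059) and quantile normalization (0.19). *Rpgrip1l* turned against controls under those scalings (0.0018 and 0.123), without 4 controls (0.0362) and without 1 sample (-0.274 to 0.0107), and against adjacent cerebellum without 1 sample (-0.0489 to 0.251). In adjacent against control cerebella, *Kif7* turned without mice GB344 and GB359 (-0.0077). *Arl13b* turned there (-0.19), under the scalings (-0.0094 and -0.106), against *Brca2WT; Trp53-/-* controls (-0.0236) and without 1 sample (-0.0227 to 0.179). Over all alternatives, 527 gene values kept direction and call, 11 lost the call, 4 gained it and 16 turned sign.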
